A study of Mus musculus with 46 samples.

Results

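The mRNA of 10 Toll-like receptor genes, Tlr1 to Tlr9 and Tlr13, was followed in the liver and white adipose tissue (WAT) of obese female and male mice that received PTP-r or vehicle. The genes were taken as a named family, by symbol, and all 10 were found among the 55487 gene identifiers of the deposited count files. Wild-type C57BL/6 mice ate a high-fat diet for 21 weeks from 7 weeks of age. From week 16 they were injected under the skin with phosphate-buffered saline (vehicle) or with PTP-r at 1 mg/kg/day for 5 weeks. What PTP-r stands for is not written in the labels, and the title of the series speaks of a prohibitin peptide of mixed chirality. There were 46 libraries, and in either organ every group held 6 except the vehicle-treated males, which held 5. Obesity and diet were thus shared by every group, and there was no lean group among the samples used here. Which fat depot was taken is not given in the labels.

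Toll-like receptors are membrane proteins of innate immunity that bind molecules of microbes and of damaged cells. Those at the cell surface bind lipids and proteins of microbes. Those of the endosome bind nucleic acids and need the chaperone Unc93b1 to get there. Most signal through the adaptor Myd88 to NF-kB, and the endosomal members also to interferon regulatory factors, while Tlr3 uses the adaptor Ticam1. In liver, Kupffer cells and recruited monocytes meet microbial products from the gut, and in obese fat, macrophages accumulate and carry many of these receptors.

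The gene total of a liver library ran from 20266425 to 57518893 counts, and that of a WAT library from 20991069 to 32219751. The hepatocyte gene Alb was at 72632 to 100157 CPM (counts scaled to a common library size) in liver and at 4.20 to 439.7 CPM in WAT. The adipocyte gene Adipoq was at 1577 to 4542 CPM in WAT and at most 2.56 CPM in liver. A library's number is the one in its title. Skeletal muscle markers stood high in liver female PTP-r library 11, liver female vehicle library 12, WAT female PTP-r libraries 1 and 5 and WAT male vehicle library 3. Pancreas markers did so in liver female PTP-r library 1, epididymis markers in WAT male PTP-r library 2 and WAT male vehicle library 9, B and plasma cell markers in liver female vehicle library 10, and T and NK cell markers in WAT male PTP-r library 7. Whether every library stands for its own animal is not given in the labels, and p-values cover the spread between libraries.

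The sequences just before and at the start of 5 members are shown. Of these genes Tlr1, Tlr2, Tlr9 and Tlr13 separated PTP-r from vehicle in male liver without overlap. Tlr5, the member with the highest level in liver, did not. Tlr4 separated them too but had no sequence to show. How many of all genes did so was not counted, and the separation only explains the choice of sequences. The sequences are RefSeq windows on GRCm38.p6, given on the gene's own strand. Each runs from 250 bases before to 50 bases after the start of transcription. Capitals mark GAGGAA, a core bound by the myeloid factor PU.1, and GGG followed after any 5 bases by CC, the frame of an NF-kB site, on either strand. A match on the minus strand reads as the reverse complement.
Tlr1, chr5:64933509-64933808, minus strand: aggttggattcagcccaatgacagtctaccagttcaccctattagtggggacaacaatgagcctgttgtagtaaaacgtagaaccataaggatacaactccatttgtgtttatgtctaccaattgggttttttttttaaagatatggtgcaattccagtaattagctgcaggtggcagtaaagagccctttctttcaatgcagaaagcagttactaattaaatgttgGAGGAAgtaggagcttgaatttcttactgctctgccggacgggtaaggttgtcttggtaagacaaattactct
Tlr2, chr3:83841559-83841858, minus strand: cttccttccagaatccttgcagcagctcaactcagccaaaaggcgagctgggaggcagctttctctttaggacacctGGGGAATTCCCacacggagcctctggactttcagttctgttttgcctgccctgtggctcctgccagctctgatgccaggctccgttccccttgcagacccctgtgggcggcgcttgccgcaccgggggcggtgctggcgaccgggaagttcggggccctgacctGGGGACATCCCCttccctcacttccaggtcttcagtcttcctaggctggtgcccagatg
Tlr9, chr9:106222348-106222647, plus strand: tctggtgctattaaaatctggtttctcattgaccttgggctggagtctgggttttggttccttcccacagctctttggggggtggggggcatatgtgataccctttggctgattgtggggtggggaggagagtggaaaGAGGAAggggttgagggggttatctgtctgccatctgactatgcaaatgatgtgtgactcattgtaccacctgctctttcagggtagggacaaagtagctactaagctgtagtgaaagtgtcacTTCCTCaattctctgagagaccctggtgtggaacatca
Tlr13, chrX:106143025-106143324, plus strand: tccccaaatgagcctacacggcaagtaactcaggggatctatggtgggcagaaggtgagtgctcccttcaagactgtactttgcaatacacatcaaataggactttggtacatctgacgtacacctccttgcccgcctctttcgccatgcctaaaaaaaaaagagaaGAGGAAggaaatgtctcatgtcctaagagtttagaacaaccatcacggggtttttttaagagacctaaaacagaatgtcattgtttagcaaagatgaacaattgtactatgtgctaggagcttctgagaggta
Tlr5, chr1:182954538-182954837, plus strand: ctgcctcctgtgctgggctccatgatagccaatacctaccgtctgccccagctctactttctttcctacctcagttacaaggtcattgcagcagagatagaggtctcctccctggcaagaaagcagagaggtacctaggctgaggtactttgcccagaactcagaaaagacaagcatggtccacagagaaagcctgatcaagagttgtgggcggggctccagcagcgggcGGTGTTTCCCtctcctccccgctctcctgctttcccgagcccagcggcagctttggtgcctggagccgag

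Windows were found for 8 of the 10 members, and Tlr4 and Tlr7 had none. GAGGAA occurred in the windows of Tlr1, Tlr8, Tlr9 and Tlr13 and in 28.3% of all 32851 windows of the same length. The NF-kB frame occurred in those of Tlr2, Tlr3, Tlr5 and Tlr6 and in 50.8% of all windows. The Tlr2 window held 5 matches to it, which overlap each other in 2 clusters. A frame of interferon regulatory factors, GAAA followed after any 2 bases by GAAA, occurred in none of the 8 and in 3.44% of all windows. These are matches of letters and say nothing of binding. The annotated start of Tlr3 in GENCODE lies 700 bases from the RefSeq start, and that of Tlr2 159 bases.

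The members differ in where they lie. Tlr1 and Tlr6 are neighbours on the minus strand of chromosome 5, 18468 bases apart (GRCm38), and both proteins pair with that of Tlr2, whose gene is on chromosome 3. Tlr7 and Tlr8 are neighbours on the X chromosome, 40600 bases apart, and Tlr13 is also on the X chromosome. All 10 are annotated as protein-coding. No member overlapped another gene on its own strand. Gm45542 lies antisense to Tlr3, and 99.4% of the strand-assigned reads there were on the Tlr3 strand. Tlr1 and Tlr6 are close paralogs, and reads that mapped to several places entered no gene. How many reads of these 2 genes were lost in that way was not measured, and their values are uncertain to that extent.

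To compare members with each other, levels were set per length, as CPM per kilobase of exon. In liver the family was led by Tlr5, the receptor for bacterial flagellin, at 4.86 ± 0.48 CPM per kilobase (SD, n = 5) in vehicle males and 3.46 ± 0.81 (n = 6) in vehicle females. Tlr3, the receptor for double-stranded RNA, followed at 2.19 ± 0.21 and 2.32 ± 0.29, and Tlr2 at 0.69 ± 0.14 and 1.22 ± 0.27. Tlr9, which binds DNA with unmethylated CpG, came last in vehicle males at 0.06 ± 0.03 CPM per kilobase. In vehicle male liver the ranges of Tlr5, Tlr3, Tlr2 and Tlr1 did not overlap from each to the next, nor did those of Tlr6 and Tlr9, while the ranges of the neighbours in the order between Tlr1 and Tlr6 overlapped. In vehicle female liver only Tlr3 and Tlr2 were neighbours with separate ranges.

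The order in WAT was another one and differed between the sexes. In vehicle males Tlr13, which recognises bacterial ribosomal RNA in mice, came first at 6.58 ± 3.09 CPM per kilobase (n = 5), then Tlr8 at 5.75 ± 2.24 and Tlr2 at 3.95 ± 1.20. In vehicle females Tlr13 came last at 0.61 ± 0.48 (n = 6), and Tlr3 led at 3.46 ± 0.50, followed by Tlr4, the receptor for bacterial lipopolysaccharide, at 2.78 ± 0.29. Most neighbours in the WAT orders had overlapping ranges. The exceptions were Tlr4 above Tlr2 in vehicle females and Tlr4 above Tlr5 in vehicle males. With the longest transcript as length in place of all exons, 20 of the 80 group means moved by more than 1 SD. In vehicle male WAT Tlr4 was then at 4.30 and Tlr3 at 4.05 CPM per kilobase, above Tlr2 at 3.95, whose length was the same. The order below Tlr8 in that group thus depends on the length used.

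**Figure D1:**
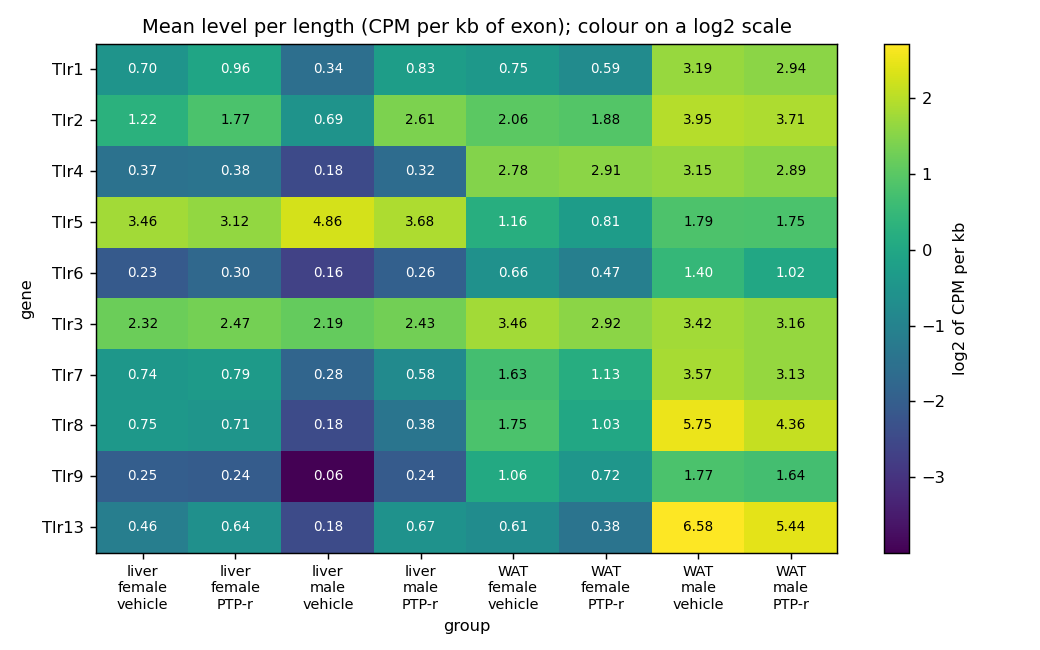
Mean level of each member (rows) in the 8 groups (columns), in CPM per kilobase of exon, printed in each cell, with colour on a log2 scale. Tlr5 and Tlr3 had the highest values in liver vehicle groups, and Tlr13 ranged from 0.61 in vehicle female WAT to 6.58 in vehicle male WAT.

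Which members did PTP-r change in male liver? Of the 10 members 7 were higher with PTP-r and 0 lower (edgeR, Benjamini-Hochberg adjusted p under 0.05), against 7.68% of all 15892 genes tested in either direction and 5.23% higher. The median log2 fold change of the members was 1.09, and that of all genes tested was 0.00. Among surface receptors Tlr1, Tlr2 and Tlr4 rose, and among endosomal receptors Tlr7, Tlr8, Tlr9 and Tlr13 rose. Tlr3, Tlr5 and Tlr6 did not pass.

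Tlr2, the partner of Tlr1 and Tlr6 in sensing lipoproteins, had the smallest p of all 15892 genes in this comparison. It was at 1.30, 1.98, 1.59, 1.16 and 1.52 CPM in the 5 vehicle libraries and at 5.42 CPM in the lowest, 5.91 in the median and 6.14 in the highest of the 6 PTP-r libraries. All PTP-r libraries lay far above all vehicle libraries and within a narrow range. The fold was 3.90 (log2 1.96, SE 0.16, edgeR adjusted p = 1.26e-07).

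Tlr1 was at 0.843, 0.948, 1.03, 0.688 and 0.650 CPM with vehicle and at 1.14, 2.21 and 2.43 CPM in the lowest, median and highest PTP-r library. The groups did not overlap, although PTP-r library 1 was close to the highest vehicle library. The log2 fold change was 1.32 (SE 0.21, edgeR adjusted p = 0.00021). Tlr4 was at 0.802, 0.867, 0.412, 0.688 and 0.839 CPM with vehicle and at 1.01, 1.23 and 1.84 CPM with PTP-r (lowest, median and highest). All PTP-r libraries again lay above all vehicle libraries, with a log2 fold change of 0.89 (SE 0.23, edgeR adjusted p = 0.0163).

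Tlr6 and Tlr5 completed the surface receptors and were not called. Tlr6 ranged over 0.579 to 0.876 CPM in PTP-r libraries, against 0.294 to 0.731 CPM in vehicle libraries (log2 0.73, SE 0.26, edgeR adjusted p = 0.0951), and 6 of 6 PTP-r libraries lay above the vehicle mean. Tlr5 ranged over 5.85 to 15.6 CPM in PTP-r libraries, against 14.01 to 18.6 CPM in vehicle libraries (log2 -0.37, SE 0.21, edgeR adjusted p = 0.326), with 0 of 6 PTP-r libraries above the vehicle mean and library 1 far below the rest.

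Among the endosomal receptors Tlr13 was at 0.576, 0.785, 0.677, 0.442 and 0.352 CPM with vehicle and at 1.45, 2.20 and 3.05 CPM in the lowest, median and highest PTP-r library. The groups did not overlap, and the fold was 3.85 (log2 1.95, SE 0.24, edgeR adjusted p = 2.67e-05). Tlr9 was at 0.247, 0.162, 0.177, 0.0737 and 0.135 CPM with vehicle and at 0.272, 0.591 and 0.867 CPM with PTP-r. The groups did not overlap either, with a log2 fold change of 1.92 (SE 0.41, edgeR adjusted p = 0.00369). The Tlr9 values rest on 3 to 12 reads per vehicle library and 9 to 40 per PTP-r library, the fewest of any member.

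Tlr7, the receptor for single-stranded RNA, was at 0.590 to 1.11 CPM with vehicle and 0.976 to 2.57 CPM with PTP-r (log2 1.06, SE 0.23, edgeR adjusted p = 0.0046). Tlr8, its neighbour and in humans also a receptor for single-stranded RNA, was at 0.197 to 0.704 CPM with vehicle and 0.639 to 1.55 CPM with PTP-r (log2 1.13, SE 0.29, edgeR adjusted p = 0.0177). For each gene 1 PTP-r library lay inside the vehicle range and 5 above it. The call on Tlr8 ended without vehicle library 10 or without PTP-r library 11. Tlr3 was at 7.12 to 8.996 CPM with vehicle and 8.03 to 10.2 CPM with PTP-r (log2 0.18, SE 0.10, edgeR adjusted p = 0.288).

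Markers of leukocytes and of endothelium moved in the same libraries, where 7.68% of all genes were called in either direction and 5.23% higher. Of 11 macrophage markers 6 were higher with PTP-r in male liver, among them Cd68 (log2 1.26) and Lyz2 (1.28), while Adgre1 (0.67) and Csf1r (0.61) did not pass. Summed, they reached 195.1 to 394.9 CPM in PTP-r and 130.4 to 212.7 CPM in vehicle libraries, and no marker of the list was at 0 in any liver library. Of 6 monocyte markers 5 were higher, of 5 tested neutrophil markers (8 listed) all 5, of 8 markers of lipid-associated macrophages 6, of 8 tested T and NK cell markers 2, of 9 tested B and plasma cell markers 1, and of 6 Kupffer cell markers 2, Marco and Cd5l. Of 8 endothelial markers 4 were lower with PTP-r in male liver, among them Kdr (log2 -0.69), and summed they spanned 89.1 to 118.3 CPM in PTP-r libraries, all below the vehicle range of 130.6 to 157.7 CPM. The part of these cells in the results was not tested. In bulk tissue, fewer cells of a type and less RNA per cell cannot be told apart.

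**Figure D2:**
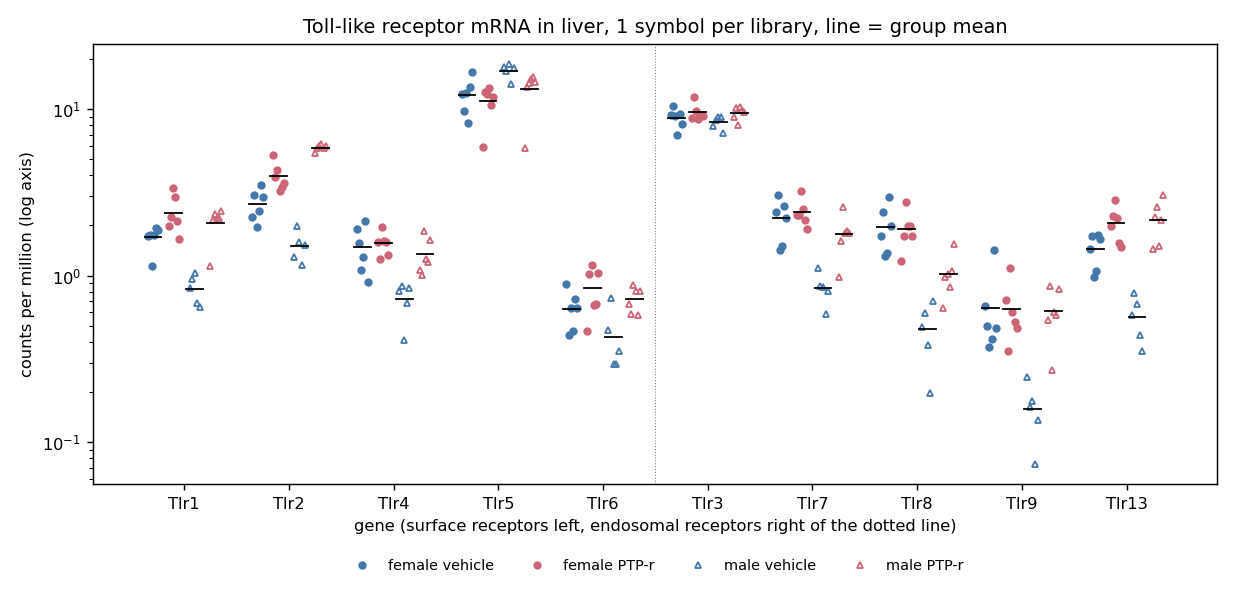
Level of each member in liver, in CPM on a log axis, with 1 symbol per library, females as filled circles, males as open triangles, vehicle in blue, PTP-r in red and a line at the group mean. Male vehicle libraries sit lowest for Tlr1, Tlr2, Tlr4, Tlr7, Tlr8, Tlr9 and Tlr13, and the 6 male PTP-r libraries of Tlr2 lie between 5.42 and 6.14 CPM.

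In female liver 0 of the 10 members passed, against 0.164% of all genes. At an unadjusted p under 0.05 there were 3 members, Tlr1, Tlr2 and Tlr13, where 8.67% of all genes had such a p, and DESeq2 called 1, Tlr2. The median log2 fold change of the members was 0.11. Tlr2 was at 1.95, 2.69 and 3.51 CPM in the lowest, median and highest vehicle library and at 3.22, 3.73 and 5.30 CPM with PTP-r. The groups overlapped, with 4 of 6 PTP-r libraries above every vehicle library (log2 0.54, SE 0.14, edgeR adjusted p = 0.131). Tlr13 was at 0.976 to 1.75 CPM with vehicle and 1.47 to 2.85 CPM with PTP-r (log2 0.49, SE 0.21, edgeR adjusted p = 0.5). Tlr1 was at 1.14 to 1.93 CPM with vehicle and 1.66 to 3.34 CPM with PTP-r, and its log2 fold change was 0.47 (SE 0.18, edgeR adjusted p = 0.416).

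The other 7 members in female liver had log2 fold changes between -0.13 for Tlr5 and 0.41 for Tlr6. Those of Tlr8 (-0.05) and Tlr9 (-0.06) became 0.11 and 0.35 without vehicle library 10, the library high in B and plasma cell markers. Of the 11 macrophage markers 0 passed in female liver with edgeR, where 0.164% of all genes did in either direction. Summed, the 11 markers reached 311.8 to 469.6 CPM in PTP-r and 278.0 to 465.4 CPM in vehicle libraries. Of 6 monocyte markers 1 was higher, Chil3 (log2 2.93), of 8 of lipid-associated macrophages 2, Gpnmb (2.87) and Mmp12 (2.41), and of 5 tested neutrophil markers 1, S100a9 (0.89). Of 8 endothelial markers 2 were lower, Kdr (-0.75) and Dnase1l3 (-0.85), and summed they spanned 109.4 to 163.8 CPM in PTP-r libraries, all below the vehicle range of 168.4 to 243.9 CPM. The part of these cells was not tested.

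The difference between the responses of the sexes was tested itself, as the female minus the male log2 fold change. It passed for 1 of 10 members, Tlr2, against 0.107% of all genes, at -1.42 (SE 0.21, edgeR adjusted p = 0.00814), the smallest p of all 15892 genes, and it passed in each of 23 fits that left out 1 library. Tlr13 had a difference of -1.45 (SE 0.32, adjusted p = 0.0723) and Tlr9 one of -1.99 (SE 0.53, adjusted p = 0.105) with edgeR, and both passed with DESeq2 (adjusted p = 0.00554 and 0.0318). The intervals of 2 SE for Tlr1 (-1.40 to -0.30), Tlr4 (-1.43 to -0.21), Tlr7 (-1.56 to -0.34) and Tlr8 (-1.94 to -0.42) lay below 0, but these members did not pass over all genes. Those of Tlr3, Tlr5 and Tlr6 included 0. Averaged over the sexes 5 members were higher with PTP-r in liver, namely Tlr1, Tlr2, Tlr7, Tlr9 and Tlr13, against 7.58% of all genes. The call on Tlr9 ended when libraries with high muscle or pancreas markers were left out (adjusted p = 0.0696), and without female PTP-r library 5, male PTP-r library 11 or male vehicle library 10 or 12.

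**Figure D3:**
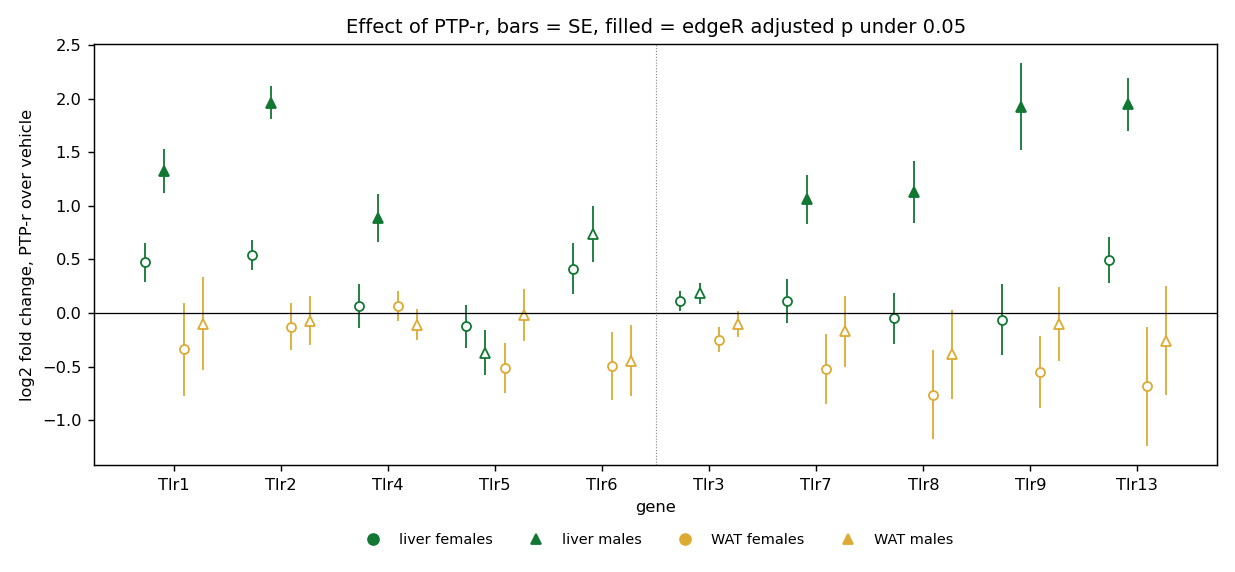
Log2 fold change of PTP-r over vehicle for each member, with bars of 1 SE, in liver (green) and WAT (yellow) of females (circles) and males (triangles), filled where the edgeR adjusted p was under 0.05. Filled symbols occur only in male liver, from 0.89 for Tlr4 to 1.96 for Tlr2; the WAT values lie between -0.76 and 0.06.

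Under vehicle the sexes already differed in liver. Of the 10 members 7 were higher in females and 0 lower, against 36.7% of all genes in either direction and 19.3% higher. This comparison and that of PTP-r with vehicle in males share the 5 male vehicle libraries. Tlr8 was at 1.31, 1.85 and 2.97 CPM in the lowest, median and highest female vehicle library and at 0.494, 0.596, 0.382, 0.197 and 0.704 CPM in the male ones, without overlap (log2 2.04, SE 0.29, edgeR adjusted p = 9.7e-06). Tlr7 was higher by 1.37, Tlr13 by 1.35, Tlr1 by 1.03, Tlr4 by 1.02, Tlr2 by 0.85 and Tlr9 by 1.98 on the log2 scale.

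With PTP-r, the mean of Tlr13 was 2.06 ± 0.509 CPM (SD, n = 6) in female and 2.16 ± 0.615 CPM (n = 6) in male liver, and that of Tlr2 was 3.95 ± 0.763 and 5.86 ± 0.247 CPM. Tlr8 was at 1.90 ± 0.505 CPM in females and 1.02 ± 0.304 CPM in males. All 11 macrophage markers were higher in females under vehicle, as were 8 of 8 tested T and NK cell markers and 19.3% of all genes. The part of these cells in the difference was not tested. Tlr5 was lower in females by 0.49 on the log2 scale and did not pass (edgeR adjusted p = 0.0668).

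In WAT no member passed for PTP-r in females, in males or over both, against 0%, 0.873% and 7.08% of all 17765 genes (edgeR). DESeq2 also called 0 members in each of these 3 comparisons, where it called 594, 1135 and 2316 of all genes. With limma voom and quality weights 0 members were called too, against 371, 1120 and 2099 genes. In females 2 members, Tlr3 and Tlr5, and 0 in males or over both had an unadjusted edgeR p under 0.05, where 16.4%, 20.8% and 27.1% of all genes had one. The members' median log2 fold change was -0.50 in females, -0.11 in males and -0.30 over both, and that of all genes was 0.01, 0.04 and 0.03. The estimates over both sexes were below 0 for all 10 members, from -0.02 for Tlr4 to -0.57 for Tlr8. That of Tlr4 changed sign without male PTP-r library 1 (0.03) or male vehicle library 3 (0.02).

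The spread between libraries was wide in WAT. Tlr13 in male WAT was at 49.4, 47.1, 18.8, 18.9 and 55.8 CPM with vehicle, and at 3.37 in the lowest, 28.3 in the median and 71.6 CPM in the highest PTP-r library. The PTP-r range thus spanned the vehicle range on both sides, and the log2 fold change of -0.26 had an interval of 2 SE from -1.28 to 0.76. Tlr8 in female WAT, with the lowest estimate of the family, was at 4.66 to 15.8 CPM with vehicle and 2.14 to 7.32 CPM with PTP-r (log2 -0.76, SE 0.42, edgeR adjusted p = 0.371). Tlr4 in female WAT was at 17.96 to 23.6 CPM with vehicle and 19.8 to 25.4 CPM with PTP-r (log2 0.06, 2 SE interval -0.22 to 0.34). The sexes' responses in WAT did not differ for any member, against 0% of all genes, with 0 members at an unadjusted p under 0.05 with edgeR, where 8.56% of all genes had one, and 0 with DESeq2.

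**Figure D4:**
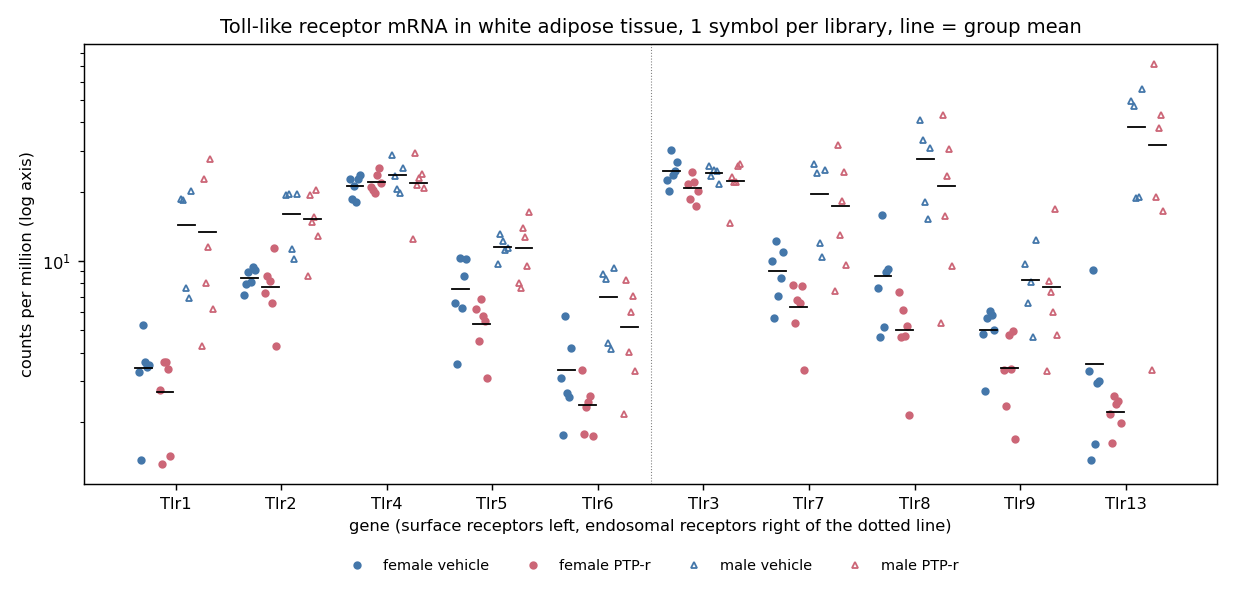
Level of each member in WAT, in CPM on a log axis, with 1 symbol per library, females as filled circles, males as open triangles, vehicle in blue, PTP-r in red and a line at the group mean. Tlr13 spans 3.37 to 71.6 CPM in male PTP-r libraries, and Tlr3 spans 14.6 to 30.2 CPM over all 4 groups.

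Between the sexes under vehicle, the members called in WAT were lower in females, while their estimates in liver were higher in females. Tlr5 had a lower estimate in females in both organs and passed in neither. Summed epididymis markers were at 1.28 to 56.6 CPM in male and at most 0.0884 CPM in female vehicle WAT. The labels name no depot, so that sex cannot be told apart from depot or dissection here. Of the 10 members 6 were lower in females and 0 higher, against 26.9% of all genes in either direction and 13.3% lower. Tlr13 was at 1.37, 2.98 and 9.11 CPM in the lowest, median and highest female library, below every male vehicle library, and its mean in males was 10.7 times that in females (log2 -3.42, SE 0.56, edgeR adjusted p = 0.000253). Tlr1 was at 1.37 to 5.25 CPM in females and at 18.6, 18.3, 7.63, 6.88 and 20.2 CPM in males, again without overlap (log2 -2.07, SE 0.45, edgeR adjusted p = 0.00207). Male libraries 9 and 10 were the lower ones for both genes. Tlr8 was lower in females by a log2 fold change of -1.69, Tlr7 by -1.11, Tlr6 by -1.07 and Tlr2 by -0.92.

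The call on Tlr6 ended without female vehicle library 3 or male vehicle library 3, 4 or 12, and without the libraries high in other tissues' markers (adjusted p = 0.0547), and that on Tlr7 without male vehicle library 3. Tlr3 (log2 0.04), Tlr4 (-0.16), Tlr5 (-0.60) and Tlr9 (-0.72) did not pass. Where 13.3% of all genes were lower in females, 9 of the 11 macrophage markers were, 1 was higher, Cd163, and 1 did not pass, Mrc1. Their summed level was 910.2 to 1955 CPM in female and 1720 to 4254 CPM in male vehicle libraries, and no marker was at 0. Of 8 markers of lipid-associated macrophages 7 were lower in females. The part of macrophage number in the difference was not tested.

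Between the organs under vehicle, 9 members were higher and 1, Tlr5, lower in WAT, where 84% of all 19135 genes differed and 43.8% of all were higher in WAT. Tlr4 had the largest difference, with a log2 of 3.53 (SE 0.14, edgeR adjusted p = 1.28e-25), followed by Tlr9 (3.42), Tlr8 (3.10) and Tlr13 (2.79). Tlr3 had the smallest of the 9 (0.61), and Tlr5 was lower by a log2 of -1.51 (SE 0.17). Tlr5 and Tlr3, the 2 leading members of liver, were the 2 with the lowest WAT to liver difference. The level in the same liver libraries enters both, so that this match is partly built in.

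The response to PTP-r over both sexes was lower in WAT than in liver for 4 of 10 members, against 5.39% of all genes in either direction and 2.99% lower. The difference was -1.33 for Tlr2 (SE 0.20, edgeR adjusted p = 6.32e-05), -1.67 for Tlr13 (SE 0.44, adjusted p = 0.0196), -1.25 for Tlr9 (SE 0.36, adjusted p = 0.0347) and -1.02 for Tlr6 (SE 0.30, adjusted p = 0.0352). Tlr2 passed in all 46 fits that left out 1 library and in each of 10 other settings. Tlr13 passed in all 46 fits and missed with limma voom weights (adjusted p = 0.0604). Tlr6 lost its call in 14 and Tlr9 in 10 of the 46 fits. Every title number had the same sex and treatment in liver and WAT, so that same-numbered libraries may come from 1 mouse, which the labels do not state. With the title number as a replicate block 7 members were lower in WAT, the 4 above and Tlr1 (-1.17, adjusted p = 0.0344), Tlr7 (-0.96, adjusted p = 0.0284) and Tlr8 (-1.21, adjusted p = 0.0423), with edgeR. The share of all genes called under that block is not given here. This count therefore cannot be called particular to the members. Tlr5 had a difference of 0.00, which changed sign with DESeq2 size factors.

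Genes that work with the receptors were taken from lists of the pathway. Of all genes tested in liver 5.23% were higher with PTP-r in males. In male liver 7 of 15 tested co-receptors and chaperones were higher with PTP-r, including Clec7a, a receptor for fungal glucan (log2 1.96), Ctss, a protease that processes endosomal receptors (1.16), Cd180, a relative of Tlr4 on B cells and myeloid cells (1.34), and the chaperone Unc93b1 (0.38). Of 24 adaptors and kinases 4 were higher, among them Irf7 (1.14), Ikbke (0.66) and Btk (0.93), and 1 was lower, the kinase Map3k7 (-0.25). Myd88, the common adaptor, named for its role after its value was seen, was also higher (0.25). Of 15 tested feedback inhibitors 5 were higher, including the NF-kB inhibitors Tnfaip3 (1.20) and Nfkbia (0.49), Trim30a (0.96) and Irak3 (0.98).

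Of 12 tested target cytokines and acute-phase genes, out of 18 listed, 10 were higher in male liver, including Saa3 (log2 3.59), Ccl2 (2.41), Cxcl10 (1.74) and Cxcl2 (2.59). The medians were 0.37 for co-receptors, 0.02 for adaptors and kinases, 0.26 for inhibitors and 1.94 for targets. In female liver no gene of the first 3 lists passed with edgeR, and 3 of 12 targets did: Saa3 (2.14), Cxcl2 (2.33) and Ccl2 (1.34). Of all genes 0.164% passed there. Besides Tlr2, Clec7a alone of these genes had a response that differed between the sexes (-1.38, edgeR adjusted p = 0.0435).

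Under vehicle 9 of 15 co-receptors were higher in female than in male liver, and 0 were lower. Of all genes 19.3% were higher there. In WAT 11 of 15 co-receptors were lower in females and 0 higher, where 13.3% of all genes were lower. Among them were Ctss (log2 -2.62), Cd180 (-2.53) and Clec7a (-2.25). Of the targets 9 of 15 were lower in females.

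In male WAT Irf7 (log2 0.81) and Irf3 (0.25), the factors that drive interferon genes, were higher with PTP-r. These were 2 of 24 adaptors and kinases, against 0.873% of all genes, and no gene of the other 3 lists passed with edgeR. Both calls were lost without the libraries high in muscle, pancreas or epididymis markers, where 0 genes were called in place of 155. With the description number as a replicate block 0 genes were called as well, and with DESeq2 1135. Over both sexes 2 of 24 adaptors and kinases, 2 of 15 co-receptors, 0 of 16 inhibitors and 1 of 15 targets passed, against 7.08% of all genes. Irf7 (0.65) and Irf3 (0.15) were higher, and Lbp, the carrier of lipopolysaccharide (-0.78), Ctsl (-0.51) and Saa3 (-1.72) were lower. The response was lower in WAT than in liver for 6 of 15 co-receptors, 2 of 24 adaptors and kinases, 3 of 16 inhibitors and 10 of 15 targets. It was lower for 2.99% of all genes.

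Within groups the members varied together in WAT and less so in liver. After the group mean was taken from log2 CPM, the 10 pairs among Tlr1, Tlr6, Tlr7, Tlr8 and Tlr13 had a Pearson r of 0.84 to 0.96 over 23 WAT libraries, and of 0.20 to 0.78 over 23 liver libraries. Pairs with Tlr5 had r of 0.13 to 0.57 in WAT. These genes share their libraries and depth, and the values are a description. The 3 genes most like Tlr7 in WAT were Ms4a7, Rab8b and the macrophage marker Adgre1 (r of 0.98 each). In liver those most like Tlr13 were Tm6sf1 (0.90), Adcy7 (0.88) and Ucp2 (0.85), and those most like Tlr2 were Csf2rb2 (0.74), Ptpn22 (0.72) and Il27ra (0.71).

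The summed macrophage markers were set against each member in the same way, 20 relations in all, with libraries permuted within groups. In WAT Tlr7 had a Pearson r of 0.97 (permutation p = 1e-05, the smallest that 100000 permutations can give, adjusted p = 2.86e-05) and a Spearman rho of 0.97 (permutation p = 1e-05, adjusted p = 4e-05). Without the 2 libraries farthest from the median, r was 0.97, and it was 0.97 in females and 0.98 in males. Tlr13 had an r of 0.88 and a rho of 0.91 in WAT (permutation p = 1e-05 for each, adjusted p = 2.86e-05 and 4e-05), an r of 0.85 without the 2 libraries, and 0.73 in females and 0.94 in males. Tlr3 (r 0.43, rho 0.34, permutation p = 0.0821 and 0.136, adjusted p = 0.0992 and 0.181) and Tlr5 (r 0.27, rho 0.16, permutation p = 0.233 and 0.511, adjusted p = 0.259 and 0.538) did not pass in WAT, with r of 0.23 and 0.19 without the 2 libraries. For Tlr5 the sexes parted, with r of 0.87 in 12 female and -0.21 in 11 male libraries, a difference that was not tested.

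In liver the relation held for Tlr13 (r 0.79, rho 0.83, permutation p = 6e-05 and 4e-05, adjusted p = 0.000109 and 0.000133), with r of 0.71 without the 2 libraries, 0.71 in females and 0.87 in males. Tlr2, with the largest fold in male liver, had an r of 0.35 and a rho of 0.38 (permutation p = 0.0617 and 0.0552, adjusted p = 0.0882 and 0.0789), and an r of 0.36 without the 2 libraries. Tlr9 had an r of 0.22 and a rho of 0.26 (permutation p = 0.337 and 0.258, adjusted p = 0.355 and 0.286), and 0.14 without the 2 libraries. In all, 5 members in liver and 8 in WAT had an adjusted p under 0.05 on both measures. The share of all genes that pass the same rule was not computed. These counts therefore cannot be called particular to the family.

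The same was done for the 11 other cell type lists, 220 relations, and 21 had an adjusted p under 0.05 on both measures. The share over all genes was again not computed. The relations given here were picked after their values were seen. A summed list is weighted to its most abundant genes. In liver Ighm had a mean of 34.7 CPM in the B and plasma cell list, and the next gene, Jchain, 3.72 CPM. In the adipocyte list Fabp4 had 5.78 and Cidec 2.64 CPM, against 0.35 for Adipoq and 0.39 for Plin1. The liver adipocyte sum thus rests mainly on Fabp4 and Cidec. In liver Tlr9 had an r of 0.68 and a rho of 0.74 with T and NK cell markers (permutation p = 0.00145 and 0.00039, adjusted p = 0.0165 and 0.00858), and an r of 0.82 without the 2 farthest libraries. With B and plasma cell markers Tlr9 had an r of 0.65 and a rho of 0.54 (permutation p = 0.00466 and 0.0164, adjusted p = 0.0366 and 0.102), and an r of 0.45 without the 2 libraries. Tlr13 had an r of 0.74 and a rho of 0.73 with B and plasma cell markers (permutation p = 8e-05 and 0.00047, adjusted p = 0.0022 and 0.00862), and 0.70 without them. Tlr2 had an r of 0.62 and a rho of 0.37 with adipocyte markers (permutation p = 0.0132 and 0.151, adjusted p = 0.0767 and 0.356), and 0.36 without the 2 libraries. In WAT Tlr9 had an r of 0.81 and a rho of 0.72 with T and NK cell markers (permutation p = 6e-05 and 0.00022, adjusted p = 0.0022 and 0.00605), and 0.70 without the 2 libraries. Tlr3 had an r of 0.67 and a rho of 0.48 with endothelial markers (permutation p = 0.00234 and 0.0266, adjusted p = 0.0224 and 0.143), and 0.42 without the 2 libraries.

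**Figure D5:**
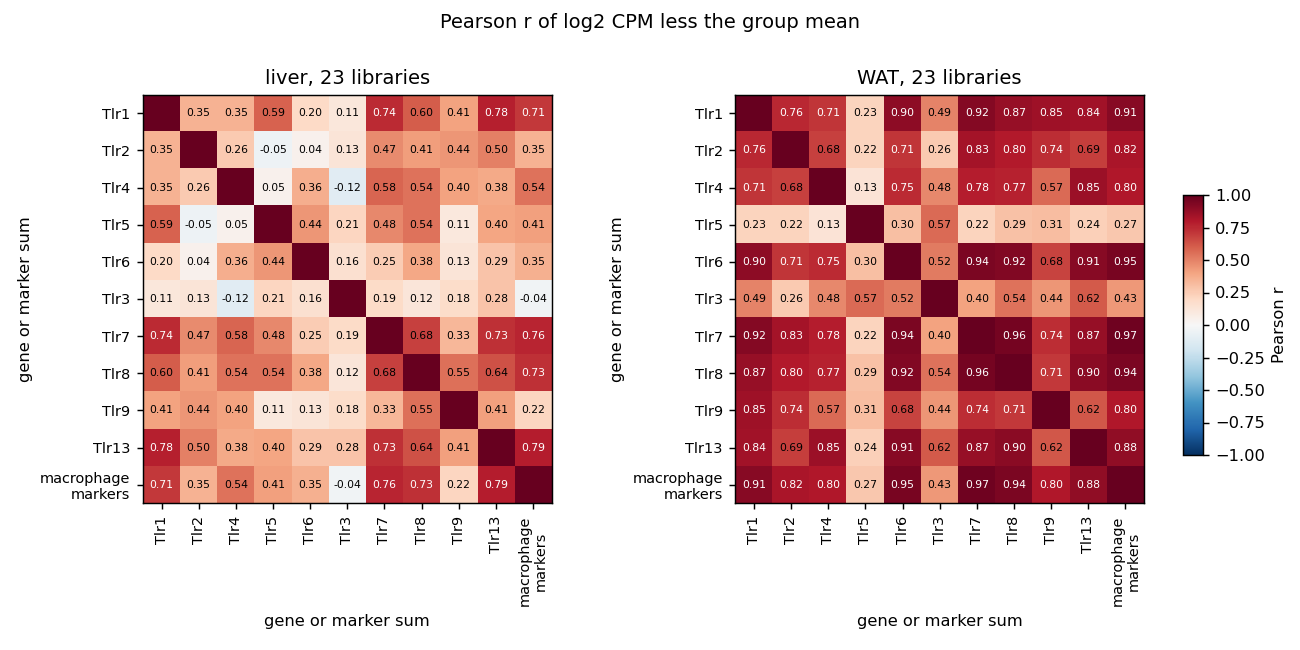
Pearson r between members, and between members and the summed macrophage markers, of log2 CPM less the group mean over 23 liver (left) and 23 WAT (right) libraries, printed in each cell, on a colour scale from -1 to 1. In WAT Tlr1, Tlr6, Tlr7, Tlr8 and Tlr13 form a block with r of 0.84 or more, and Tlr5 stands apart with r of 0.13 to 0.57.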

How the data were processed

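Poly(A) RNA of 46 libraries was sequenced. The authors deposited whole-number read counts per gene for each library, in an unstranded and 2 stranded columns, and the submitters' processing notes name STAR 2.4.0i, HTSeq and the build mm10. The column used, the second stranded one, held 96.0% to 96.5% of the stranded reads. Of the reads in a library, 21.0% to 28.9% in liver and 18.4% to 28.7% in WAT were in the 4 totals that name no gene, and these were left out. Of the 55487 identifiers 55227 matched GENCODE M21 (GRCm38), from which positions and lengths came. No libraries of a group were alike within sampling noise: chi-square per degree of freedom was 12.5 or more in all 110 pairs.

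Counts were fitted in R 4.3.3 with edgeR 4.0.16 quasi-likelihood tests on group means (TMM scaling, filterByExpr with a minimum count of 10 and total of 15, 2-sided), per organ and, between organs, over both. Over all genes tested, 15892 in liver, 17765 in WAT and 19135 over both, p-values were adjusted by Benjamini-Hochberg with a threshold of 0.05. All 10 members passed the filter. CPM are edgeR CPM on the TMM-scaled library size. Correlations used log2(CPM + 0.5). A library was called high in a marker list when its sum was over 4 times its organ's median and over 50 CPM. DESeq2 1.42.0, limma 3.58.1 voom weights and the other settings are given with their effects at the end. The steps were tested on simulated data.

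The members, lists and tests were chosen with earlier results of these data known. All 10 members were named, up to 4 passing genes per pathway list and comparison by smallest p, and, for some members of at least 1 CPM, the 3 genes most correlated with them; the others are not reported here. Depth sets the precision: a low member such as Tlr9 in liver rests on few reads.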

Additional observations from a re-analysis of the deposited data

Results flagged for a closer look

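In 80 groups of libraries, each member in each group, the highest or lowest library stood apart from the rest by Dixon's test in 8, where chance gives about 1 in 20. In liver, Tlr1 was low in female vehicle library 6 (1.14 CPM) and in male PTP-r library 1 (1.14 CPM). Tlr3 was high in female PTP-r library 4 (11.7 CPM). Tlr5 was low in female PTP-r library 1 (5.89 CPM), the library high in pancreas markers, and in male PTP-r library 1 (5.85 CPM). Tlr9, a receptor that B cells carry, was high in female vehicle library 10 (1.42 CPM), the library high in B and plasma cell markers. In WAT, Tlr9 was high in male PTP-r library 7 (16.9 CPM), the library high in T and NK cell markers, and Tlr13 in female vehicle library 6 (9.11 CPM). The part of other cells in these values was not tested.

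The response to PTP-r differed between groups by a test of the difference itself for Tlr2 between the sexes in liver (female minus male, log2 -1.42). Between the organs (WAT minus liver) it differed for Tlr2 (-1.33), Tlr6 (-1.02), Tlr9 (-1.25) and Tlr13 (-1.67).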

How the results depend on the processing

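Depth limits Tlr9 and Tlr6 most in liver, with 425 and 541 reads over all libraries. The counts of genes called moved with the setting, while for PTP-r in WAT 0 members were called under every setting run. The cause of these changes was not tested.

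Genes called in female liver were 26, and 141 with DESeq2 (1 member, Tlr2), 41 with DESeq2 size factors, 12 without libraries high in other tissues' markers, 10 without the B-cell-high library and 5 with the 2 groups alone. In WAT females there were 0, and 594 with DESeq2, 371 with voom weights, 20 with a filter of 1 CPM and 3 with the 2 groups alone. In WAT males there were 155, and 1135 with DESeq2, 1120 with voom, 35 with no filter and 0 without other-tissue libraries. Over both sexes in WAT there were 1258, and 2316, 2099, 385 and 34 in the same order. For the sex difference in liver there were 17, and 215 with DESeq2 (3 members), 6 without other-tissue libraries, and 4 with no filter, unstranded counts, the title number as a term or without the B-cell-high library. In WAT it was 0, and 79 with DESeq2 and 1 without other-tissue libraries. Female against male WAT had 4787, and 2807 without those libraries. For the organ difference there were 1032, and 1718 with voom and 591 with no filter, with 4 members, 7 with DESeq2 and 2 with no filter. In liver over both sexes DESeq2 and voom called 8 members in place of 5. The genes these tools called there, and those DESeq2 called for the organ difference, are not given here. These member counts therefore cannot be read against a share of all genes.

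The labels do not state that numbers pair libraries. Of same-numbered liver and WAT libraries 5 of 23 correlations were over 0.1, and 8 libraries correlated best with their own number. For the description numbers 6 of 27 were over 0.1 in each organ. With the description number as a replicate block, genes called were 14 in female liver, 571 in male liver, 416 over both (3 members), 86 for the sex difference (2 members), 34 in WAT females and 0 in WAT males. In male liver Tlr4 and Tlr8 lost their calls under that block (adjusted p = 0.149 and 0.0631, edgeR) and Tlr3 gained one (log2 0.41, adjusted p = 0.0404), and over both sexes Tlr7 and Tlr9 lost theirs (adjusted p = 0.111 and 0.222). Tlr13 gained one for the female minus male response in liver (-1.70, adjusted p = 0.0384). The title number as a replicate block gave 7 members for the organ difference, and the share of all genes under it is not given here. Log2 values that changed sign under the block were Tlr4 -0.093 in female liver, Tlr2 0.015 in WAT females, 0.21 in WAT males and 0.11 over both, Tlr4 0.044 over both, Tlr1 0.39, Tlr6 0.49, Tlr8 0.024 and Tlr13 0.26 for the WAT sex difference, and Tlr3 -0.025 between sexes in WAT.

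Other sign changes were all of values that had not passed. Without other-tissue libraries they were Tlr5 0.12 and Tlr8 0.10 in female liver, Tlr5 0.027 in WAT males, Tlr2 0.065, Tlr6 0.035 and Tlr13 0.022 for the WAT sex difference, and Tlr5 -0.17 for the organ difference. Without the B-cell-high library they were Tlr8 0.11 and Tlr9 0.35 in female liver and Tlr5 -0.014 between organs. With voom they were Tlr4 -0.0045 in WAT females, Tlr5 0.13 in WAT males, and Tlr1 0.072, Tlr6 0.10 and Tlr13 0.021 for the WAT sex difference. Tlr5 between organs was -0.018 with DESeq2 and -0.018 with its size factors.

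Leaving out each library in turn, genes called ranged from 10 to 52 in female liver, 884 to 1349 in male liver, 997 to 1301 over both, 4 to 110 for the sex difference, 0 to 277 in WAT females, 0 to 347 in WAT males, 466 to 1652 over both, 0 to 13 for the WAT sex difference and 779 to 1429 for the organ difference. Members called ranged from 6 to 8 in male liver, 4 to 7 over both, 1 to 2 for the sex difference, 4 to 7 between sexes in WAT and 2 to 7 for the organ difference. Signs changed for Tlr4 (-0.041 to 0.20), Tlr8 (-0.18 to 0.11) and Tlr9 (-0.27 to 0.35) in female liver, Tlr1 (-0.46 to 0.076), Tlr2 (-0.20 to 0.043), Tlr4 (-0.22 to 0.0038), Tlr5 (-0.16 to 0.074) and Tlr9 (-0.50 to 0.088) in WAT males, Tlr4 (-0.078 to 0.032) over both, Tlr1 (-0.42 to 0.13), Tlr2 (-0.20 to 0.075), Tlr6 (-0.20 to 0.18) and Tlr13 (-0.66 to 0.11) for the WAT sex difference, Tlr3 (-0.029 to 0.091) between sexes in WAT and Tlr5 (-0.071 to 0.060) for the organ difference.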

Other observations

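Tlr11 and Tlr12, mouse endosomal receptors for the profilin of parasites, lie outside the 10 members. Tlr12 had a median of 338 reads per liver library and 7 per WAT library, and Tlr11 had 13 and 28. Over all liver libraries Tlr12 had 9448 reads, against 11026 for Tlr5 and 7403 for Tlr3. No level per length was computed for Tlr11 and Tlr12. Neither Tlr11 nor Tlr12 was called for PTP-r in male or female liver with edgeR. Under vehicle Tlr12 was lower in female than in male liver (log2 -1.28) and Tlr11 was higher (0.97).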
